A study of Homo sapiens with 9 samples.

Results

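The 252 microRNA genes described here were followed in macrophage-like M0 cells, made with the phorbol ester PMA from THP-1, an established line derived from a human monocytic leukaemia. Every group therefore carries the PMA step, and all groups come from this line. The groups were M0 cells given 0.5 µM cisplatin, which crosslinks DNA through its platinum atom, M0 cells given 100 nM osimertinib, a covalent inhibitor of mutant epidermal growth factor receptor, and M0 cells given vehicle, whose composition the labels do not give. RNA was taken after 16 h, with 3 biological replicates per group and 1 Affymetrix Human Gene 2.0 ST array per replicate, 9 arrays in all. A microRNA gene entered when its row was named with a microRNA symbol, host gene names aside, and the mean of its brightest row over the 9 arrays reached 4.28. The values were read as log2, because they run from 0.65 to 13.2. This limit is the median level of the 14884 named genes. Of 1072 named microRNA genes, 252 reached it and 820 did not, and all 252 were among the 7442 genes tested. The genes were thus chosen by their mean level over all groups, which is given as a description. Just inside the limit lay MIR548I2 (4.29), MIR4302 (4.30) and MIR668 (4.30), and just outside it MIR494 (4.27), MIR4486 (4.27) and MIR548I1 (4.27).

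A microRNA gene is transcribed as a long primary transcript, either from its own promoter or as part of a host gene. In the nucleus the DROSHA and DGCR8 complex cuts out a hairpin, XPO5 carries it to the cytoplasm, and DICER1 releases the mature strand that an Argonaute protein holds. The seed, bases 2 to 8 of the mature strand, pairs with target messenger RNAs, so microRNAs with a shared seed share many targets. In macrophages MIR155, MIR21, MIR146A and MIR223 are well known regulators of inflammatory signalling. The arrays received labelled total RNA by a whole-transcript protocol. A row named for a microRNA gene can hold signal from the primary transcript, the hairpin or unspliced host RNA, and these cannot be told apart here. The mature strand was not measured on its own. In such bulk samples fewer cells of a type and less RNA per cell cannot be told apart either.

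The mature strands of the microRNA genes that the results turn on are shown first, from RefSeq (GRCh38.p14), with the seed in capitals. The pair from the MIR221 and MIR222 genes, both on chromosome X, share a seed and 11 bases position by position.
miR-221-3p (chrX:45746180-45746202, minus strand): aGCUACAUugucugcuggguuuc
miR-222-3p (chrX:45747036-45747056, minus strand): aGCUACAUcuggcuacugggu
MIR21 and MIR590 lie on different chromosomes, and their 5p strands share a seed but only 8 of 22 bases position by position.
miR-21-5p (chr17:59841273-59841294, plus strand): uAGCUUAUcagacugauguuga
miR-590-5p (chr7:74191213-74191234, plus strand): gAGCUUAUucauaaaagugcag
The let-7 seed is shared by 5 of the 252 genes, from 5 chromosomes. Against let-7a-5p, the miR-98-5p strand has 20 of 22 bases equal and miR-4500, which is 17 bases long, has 14.
let-7a-5p of MIRLET7A3 (chr22:46112752-46112773, plus strand): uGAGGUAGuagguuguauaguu
let-7d-5p (chr9:94178841-94178862, plus strand): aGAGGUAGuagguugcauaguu
let-7e-5p (chr19:51692793-51692814, plus strand): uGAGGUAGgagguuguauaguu
miR-98-5p (chrX:53556299-53556320, minus strand): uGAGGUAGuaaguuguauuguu
miR-4500 (chr13:87618671-87618687, minus strand): uGAGGUAGuaguuucuu
MIR25 and MIR92B share the seed of the miR-25 and miR-92 family.
miR-25-3p (chr7:100093571-100093592, minus strand): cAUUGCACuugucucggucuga
miR-92b-3p (chr1:155195237-155195258, plus strand): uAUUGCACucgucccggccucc
The following strands belong to genes that fell with both drugs or, for miR-375-3p, rose with both, and none of them shares its seed with another of the 252 genes.
miR-155-5p (chr21:25573983-25574006, plus strand): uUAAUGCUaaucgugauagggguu
miR-15a-5p (chr13:50049167-50049188, minus strand): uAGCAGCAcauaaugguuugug
miR-30e-5p (chr1:40754371-40754392, plus strand): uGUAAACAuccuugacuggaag
miR-421 (chrX:74218392-74218414, minus strand): aUCAACAGacauuaauugggcgc
miR-548g-3p (chr4:147344643-147344664, minus strand): aAAACUGUaauuacuuuuguac
miR-375-3p (chr2:219001648-219001669, minus strand): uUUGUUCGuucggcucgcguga
Of the 252 genes, 231 matched the RefSeq sequence table, 225 with a mature strand and 211 with a hairpin. They hold 312 distinct seeds, of which 15 are shared by at least 2 of the genes, 30 genes in all.

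Most of the microRNA rows were dim. The means over the 9 arrays ran from 4.29 to 8.49 with a median of 5.22, against a median of 5.73 over all 7442 tested genes, whose highest mean was 12.1. A mean of 6 or more was reached by 64 of the 252 and a mean of 7 or more by 17. The brightest 10 were MIR4737 (8.49), MIR3916 (7.99), MIR1299 (7.76), MIR4673 (7.72), MIR4525 (7.70), MIR3677 (7.69), MIR3907 (7.68), MIR4442 (7.64), MIR574 (7.61) and MIR663B (7.55). These levels belong to different probe sets, so they do not rank the RNAs by abundance. The within-group SD was also wider, with a median of 0.201 over the microRNA genes against 0.107 over all tested genes. In 33 of the 252 at least 1 group mean lay below the limit, the cisplatin mean in 12, the osimertinib mean in 18 and the vehicle mean in 10. Markers of the labelled cell type were present: 6 of 7 named monocyte and macrophage markers lay above the limit, led by CD68 (9.71) and CSF1R (8.83), while LYZ lay at 3.25 and CD14 at 4.30. Of the T cell markers 1 was named, CD2 at 3.07, and of the B cell markers 1, PAX5, which lay above the limit at 4.49. Of 3 named epithelial markers KRT18 (7.49) and KRT8 (4.66) lay above the limit and EPCAM (2.84) below it. Their part in the results was not tested. The median deviation of the 252 genes from their own means was 0.174, -0.0756 and -0.0404 on cisplatin arrays 1, 2 and 3, between -0.130 and -0.00912 on the osimertinib arrays, and between 0.0350 and 0.118 on the vehicle arrays. Cisplatin array 1 thus stood apart from the other cisplatin arrays in these genes.

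Falls outnumbered rises among the microRNA genes with both drugs. With cisplatin 42 fell and 19 rose (limma, adjusted p under 0.05 over 7442 genes). That is 16.7% lower and 7.54% higher, where all tested genes gave 14.5% lower and 16.5% higher. With osimertinib 54 fell and 11 rose, 21.4% lower and 4.37% higher, against 13.7% lower and 16.9% higher over all tested genes. The share called in either direction was below that of all tested genes, at 24.2% against 31% with cisplatin and 25.8% against 30.6% with osimertinib. The median difference over the 252 was -0.03 with cisplatin and -0.14 with osimertinib, where all tested genes had medians of 0.03 and 0.04. With cisplatin the sign of the microRNA median turned under other scalings of the arrays, to 0.06 after quantile normalization, where all tested genes had 0.11, and to 0.01 after median centring, where they had 0.07. It lay below the median of all tested genes under each of these 3 scalings. After quantile normalization the split with cisplatin was 30 higher and 39 lower. Without cisplatin replicate 1 it was 8 higher and 52 lower, and without vehicle replicate 3 it was 7 higher and 42 lower. Without vehicle replicate 3 the rises with osimertinib numbered 7. Among the 219 genes with all 3 group means at or above the limit, 35 fell and 15 rose with cisplatin, and 48 fell and 9 rose with osimertinib.

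The falls were also the larger changes. At least 2-fold falls were called for 17 microRNA genes with cisplatin and for 17 with osimertinib, 6.75% with each drug. Over all tested genes such falls numbered 85 and 89, 1.14% and 1.2%. At least 2-fold rises were called for 1 with cisplatin, MIR375, and 0 with osimertinib, 0.397% and 0%. All tested genes had 54 and 59 such rises, 0.726% and 0.793%, so there too large falls outnumbered large rises. The 17 falls with each drug include MIR548I2, whose means with both drugs lay below the limit, and MIR590, whose cisplatin mean did. For a gene that passed only through vehicle a fall was bound to appear. The count of 2-fold falls among genes with all 3 group means at or above the limit is not given here. With osimertinib 11 microRNA genes rose by less than 2-fold (limma). At an unadjusted p under 0.05, 87 differed with osimertinib, 34.5% against 40.4% of all tested genes. Of these 70 were lower, 27.8% against 17.8%. All 3 drug arrays lay below all 3 vehicle arrays for 49 genes with cisplatin and 66 with osimertinib, 19.4% and 26.2%, against 19.8% and 19.5% of all tested genes. They lay above for 25 with cisplatin and 12 with osimertinib, 9.92% and 4.76%, against 22.5% and 24.6%. In either direction the groups did not overlap for 29.4% with cisplatin and 31% with osimertinib, against 42.3% and 44.1% of all tested genes. Both comparisons use the same 3 vehicle arrays, so a high or low vehicle value enters both. Of the 42 falls with cisplatin 90.5% were also called with osimertinib, and of the 54 falls with osimertinib 70.4% were also called with cisplatin, 38 genes. For rises the shared number was 9, 47.4% of those with cisplatin and 81.8% of those with osimertinib. No microRNA gene was called in opposite directions. Between the drugs 1.75% of all tested genes differed (limma, adjusted p under 0.05). The matching overlap of calls over all tested genes is not given here. Whether the sharing is particular to microRNA genes was therefore not tested.

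**Figure D1:**
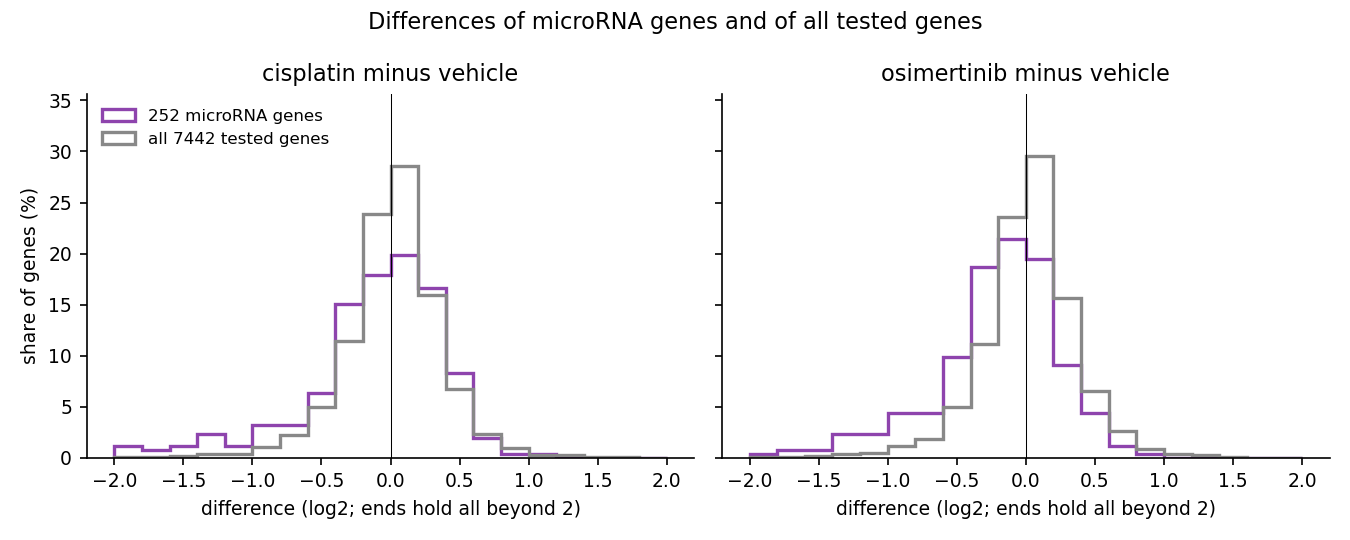
Share of genes (percent) by difference from vehicle (log2) for the 252 microRNA genes and for all 7442 tested genes, with cisplatin on the left and osimertinib on the right. A larger share of the microRNA genes lies below 0, 52.4% against 44.7% of all tested genes with cisplatin and 65.5% against 43.9% with osimertinib. Their medians are -0.03 for cisplatin and -0.14 for osimertinib.

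MIR612 had the largest fall. It read 5.22, 5.81 and 5.67 with cisplatin and 5.70, 5.84 and 6.08 with osimertinib, against 8.32, 8.70 and 8.77 with vehicle. All 6 drug arrays lay more than 2 log2 units below every vehicle array. The difference was -3.03 ± 0.154 (SE) with cisplatin, 8.18-fold lower (limma adjusted p 3.26e-08), and -2.72 with osimertinib, 6.60-fold lower (limma adjusted p 7.37e-08). Among all 7442 tested genes this was the lowest difference with cisplatin and the second lowest with osimertinib. In the RefSeq table MIR612 lies within the coordinates of NEAT1, the long non-coding RNA that builds nuclear paraspeckles, without a comparison of strand. NEAT1 itself was not named in the table used here.

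MIR221 and MIR222, neighbours inside the lncRNA gene MIR222HG whose products share a seed and target the cell cycle inhibitor CDKN1B, fell together. MIR221 read 4.23, 4.61 and 4.85 with cisplatin and 5.06, 5.06 and 4.87 with osimertinib, against 6.27, 6.32 and 6.68 with vehicle. MIR222 read 4.72, 4.63 and 4.93 with cisplatin and 5.05, 4.67 and 4.83 with osimertinib, against 5.72, 5.88 and 5.96 with vehicle. For both genes every drug array lay below every vehicle array. The MIR221 difference was -1.86 ± 0.154 with cisplatin (limma adjusted p 1.82e-06) and -1.42 with osimertinib (limma adjusted p 1.72e-05). The MIR222 difference was -1.09 ± 0.124 with cisplatin (limma adjusted p 2.58e-05) and -1.003 with osimertinib (limma adjusted p 4.99e-05). For MIR221 the drugs differed by 0.44, osimertinib minus cisplatin, which did not pass the test (limma adjusted p 0.240).

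MIR421, inside the lncRNA gene FTX, read 5.57, 5.76 and 5.40 with cisplatin and 5.63, 4.99 and 6.01 with osimertinib, against 7.19, 7.36 and 7.18 with vehicle. The groups did not overlap, and the fall was 1.67 with cisplatin and 1.70 with osimertinib. MIR4295, inside VTI1A, a gene of vesicle transport, read 4.92, 4.97 and 4.97 with cisplatin and 5.25, 4.44 and 5.35 with osimertinib, against 6.53, 6.80 and 6.90 with vehicle, a fall of 1.79 and 1.73. MIR3916, the second brightest of all, read 7.38, 7.48 and 7.64 with cisplatin and 7.69, 7.66 and 7.73 with osimertinib, against 8.78, 8.89 and 8.62 with vehicle. Its SE of 0.0804 was the tightest among the 10 largest falls with cisplatin, at -1.26, and it fell by 1.07 with osimertinib. MIR1299, next in level, fell by 1.21 with cisplatin and 1.54 with osimertinib. MIR4442 fell by 0.72 and 0.89. Of the brightest 10, these 3 fell with both drugs, MIR574 fell by 0.17 with osimertinib alone, MIR663B rose by 0.37 with cisplatin alone, and 5 were not called with either. Over all tested genes 14.5% fell and 16.5% rose with cisplatin, and 13.7% fell and 16.9% rose with osimertinib. The MIR574 call was lost in 13 of 17 alternatives and the MIR663B call in 6.

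The other largest falls were MIR4677, inside SDCCAG8, at -1.53 with cisplatin and -1.37 with osimertinib, MIR579, inside the RNA-binding protein gene ZFR, at -1.53 and -1.07, MIR5047, inside the helicase gene DDX5, at -1.25 and -1.32, MIR4742, inside WDR26, at -1.34 and -0.97, and MIR3939 at -1.21 and -1.27. MIR548I2 and MIR548G belong to the MIR548 family, whose many copies arose from a mobile element and resemble each other, so the array may not part them. MIR548I2 fell by 1.55 with cisplatin and 1.34 with osimertinib. Its group means with both drugs lay below the level limit, so it passed through vehicle alone and a fall was bound to appear. That fall is a description, and its size is read near the dim end. The MIR548 family had 6 of the 252 genes. MIR548G, MIR548I2 and MIR548H2 fell with both drugs, where 14.5% and 13.7% of all tested genes fell with cisplatin and osimertinib. MIR548A2, MIR548A3 and MIR548AN were not called. As the copies resemble each other, these falls may not be separate observations.

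**Figure D2:**
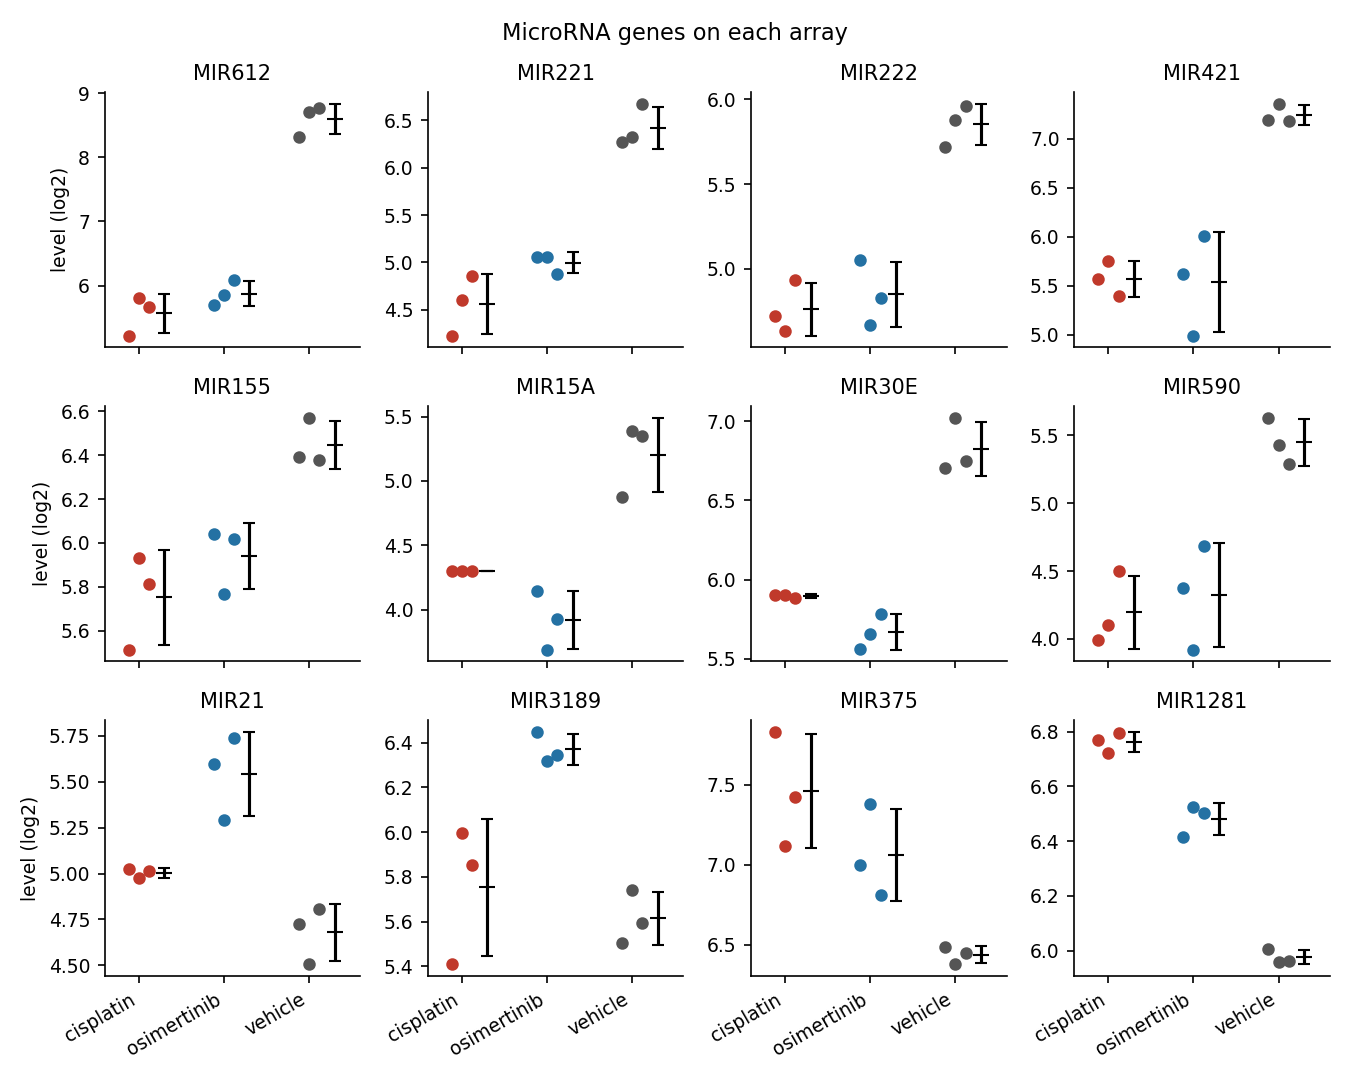
Level (log2) of 12 microRNA genes on each of the 9 arrays, as points for cisplatin, osimertinib and vehicle from left to right, with the mean and SD of the 3 replicates beside them. The vertical axes differ between panels and do not start at 0. The first 8 genes lie lower on every drug array than on every vehicle array, and MIR375 and MIR1281 lie higher.

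Among the rises the largest with cisplatin was MIR375, a microRNA known from pancreatic islets and epithelia. It read 7.83, 7.12 and 7.43 with cisplatin and 6.997, 7.38 and 6.81 with osimertinib, against 6.49, 6.38 and 6.45 with vehicle. Every drug array lay above every vehicle array, and the difference was 1.02 ± 0.160 with cisplatin (limma adjusted p 0.000324) and 0.62 with osimertinib (limma adjusted p 0.00921). MIR1281 read 6.77, 6.72 and 6.80 with cisplatin and 6.42, 6.53 and 6.50 with osimertinib, against 6.005, 5.96 and 5.96 with vehicle. Its groups were tight and separate, with rises of 0.79 ± 0.0759 and 0.51. Smaller rises with both drugs were MIR4519 (0.53 with cisplatin and 0.60 with osimertinib), MIR602 (0.65 and 0.43), MIR4472-1 (0.60 and 0.58), MIR3194 (0.73 and 0.77), MIR1180 (0.66 and 0.51), MIR2392 (0.63 and 0.57) and MIR1321 (0.40 and 0.40), which makes 9 with MIR375 and MIR1281. The vehicle means of MIR3194 (4.02) and MIR1180 (4.03) lay below the limit, so both passed through the drug groups. The call of MIR3194 was lost in 6 of 17 alternatives with cisplatin and 4 with osimertinib, and that of MIR1180 in 2 and 9. Among rises called with cisplatin alone were MIR4469 at 0.81, whose adjusted p was 0.0675 without cisplatin replicate 1, and MIR142, a microRNA of blood cells, at 0.46. MIR142 lost its call in 6 of 17 alternatives, and its vehicle mean of 4.15 lay below the limit.

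The rises called with osimertinib and not with cisplatin were 2, MIR21 and MIR3189. MIR21, one of the most studied microRNAs of cancer and inflammation, read 5.60, 5.29 and 5.74 with osimertinib and 5.02, 4.97 and 5.01 with cisplatin, against 4.73, 4.51 and 4.81 with vehicle. The osimertinib arrays lay above all others, with a difference from vehicle of 0.86 ± 0.126 (limma adjusted p 0.000179), while cisplatin gave 0.32 (limma adjusted p 0.0677). MIR3189, inside the stress cytokine gene GDF15, read 6.45, 6.32 and 6.34 with osimertinib and 5.41, 5.997 and 5.85 with cisplatin, against 5.51, 5.74 and 5.60 with vehicle. Here too the osimertinib arrays lay above all others, with 0.76 ± 0.133 (limma adjusted p 0.000723) against 0.14 with cisplatin (limma adjusted p 0.462). In the direct comparison of the drugs, osimertinib minus cisplatin, MIR21 was 0.54 higher (limma adjusted p 0.0486) and MIR3189 0.62 higher (limma adjusted p 0.0341). These direct calls were lost in 12 and 8 of 17 alternatives, with adjusted p up to 0.189 without osimertinib replicate 3 and up to 0.128 without osimertinib replicate 1.

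Osimertinib and cisplatin differed in few microRNA genes when set against each other. With osimertinib 3 genes were higher than with cisplatin and 0 were lower (limma, adjusted p under 0.05), 1.19% and 0%, against 0.766% and 0.981% of all tested genes and 1.75% in either direction. All 3 osimertinib arrays lay above all 3 cisplatin arrays for 10 genes, 3.97%, and below for 15, 5.95%, against 7.44% and 6.88% of all tested genes. At an unadjusted p under 0.05, 37 differed, 14.7% against 11.7% of all tested genes, and 26 of them were lower with osimertinib, 10.3% against 5.93%. The remaining called gene was MIR548G, which read 5.60, 5.79 and 6.28 with osimertinib and 4.50, 5.14 and 4.86 with cisplatin, while vehicle gave 6.68, 6.59 and 6.83. The 3 groups did not overlap, osimertinib lay between cisplatin and vehicle, and the difference between the drugs was 1.06 ± 0.176 (limma adjusted p 0.00733). This call was kept in all 17 alternatives, at an adjusted p of up to 0.0416 with only the 6 arrays of the drugs in the fit. Against vehicle MIR548G fell by 1.86 with cisplatin and 0.81 with osimertinib. The count of 3 was 1 without cisplatin replicate 3, osimertinib replicate 1, osimertinib replicate 3 or vehicle replicate 3. The median difference between the drugs was -0.10 over the 252, against 0.01 over all tested genes, and 183 of the 252, 72.6%, lay lower with osimertinib, against 46.9% of all tested genes. Of the 183, 0 passed the limma test and 26 had an unadjusted p under 0.05. Without cisplatin replicate 1 that median was -0.02.

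By family, the microRNAs known from monocytes, macrophages and inflammatory signalling gave 15 genes above the limit of 54 named. With cisplatin 5 of the 15 fell and 1 rose, 33.3% and 6.67%, against 14.5% and 16.5% of all tested genes. With osimertinib 4 fell and 1 rose, 26.7% and 6.67%, against 13.7% and 16.9%. The median differences were -0.06 and -0.25. MIR155, induced in activated macrophages and carried by the lncRNA gene MIR155HG, read 5.51, 5.93 and 5.81 with cisplatin and 6.04, 5.77 and 6.02 with osimertinib, against 6.39, 6.57 and 6.38 with vehicle. All drug arrays lay lower, by 0.69 ± 0.119 with cisplatin (limma adjusted p 0.000622) and by 0.51 with osimertinib (limma adjusted p 0.00553). MIR15A, a repressor of BCL2 inside the lncRNA gene DLEU2, read 4.30 on all 3 cisplatin arrays and 4.14, 3.69 and 3.93 with osimertinib, against 4.87, 5.39 and 5.35 with vehicle. It fell by 0.91 ± 0.150 with cisplatin and by 1.28 with osimertinib, with near-equal cisplatin values that make its spread look small. Its osimertinib mean of 3.92 lay below the limit, so it passed through the other groups and the size of that fall is read at the dim end. MIR33B, a regulator of cholesterol transport, fell by 0.57 with cisplatin, a call lost in 4 of 17 alternatives, and had -0.27 with osimertinib, not called. The other falling genes of the list were MIR221 and MIR222, and the rising ones MIR142 with cisplatin and MIR21 with osimertinib. MIR503, MIR181C, MIR181D, MIR99B, MIRLET7E, MIR187, MIR342 and MIR9-1 were not called with either drug.

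Of 100 named genes listed under other conserved families, whose conservation was not checked here, 25 lay above the limit. With cisplatin 6 fell and 1 rose, 24% and 4%, against 14.5% and 16.5% of all tested genes, and with osimertinib 8 fell and 1 rose, 32% and 4%, against 13.7% and 16.9%. MIR30E, inside the transcription factor gene NFYC, read 5.90, 5.90 and 5.88 with cisplatin and 5.56, 5.66 and 5.79 with osimertinib, against 6.71, 7.02 and 6.75 with vehicle. It fell by 0.93 ± 0.100 and 1.16, without overlap. MIR590 and MIR421 fell with both drugs, as did MIR340, by 0.57 and 0.48, whose call was lost in 4 and 10 of 17 alternatives. The MIR340 means with cisplatin (4.17) and osimertinib (4.26) lay below the limit, so it passed through vehicle (4.74). MIR210, the microRNA of the hypoxia response, fell by 0.48 with osimertinib, a call lost in 9 of 17, and had -0.23 with cisplatin. MIR26B, MIR185, MIR191, MIR425 and 12 further genes of these families were not called with either drug. MIR221 and MIR222 stand in both lists. Only 1 of 11 named microRNAs transcribed or processed with p53, MIR194-2, lay above the limit, and it had -0.45 with cisplatin (limma adjusted p 0.0749) and -0.48 with osimertinib (limma adjusted p 0.0578). Of the imprinted chromosome 14 cluster 5 of 51 named genes lay above the limit, and MIR127 alone was called, at 0.41 with cisplatin (limma adjusted p 0.0228, and 0.0831 without vehicle replicate 3). Of 19 named genes listed for the X-linked MIR506 to MIR514 cluster, 2 lay above the limit, MIR513A2 and MIR891A, a symbol outside that range. MIR513A2 fell by 0.69 with osimertinib (limma adjusted p 0.00183), and MIR891A was not called with either drug. The MIR200 family, a mark of epithelial cells, had 0 of 7 named genes above the limit, and the primate chromosome 19 cluster 1 of 46, MIR518B, not called.

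Genes that share a seed were set side by side. In the let-7 seed group MIR98, inside HUWE1, fell by 0.64 with cisplatin (limma adjusted p 0.0360) and 0.79 with osimertinib (limma adjusted p 0.0123), calls lost in 7 and 3 of 17 alternatives. Cisplatin array 1, at 6.55, overlapped the MIR98 vehicle arrays, which read 6.82, 6.35 and 6.72. MIR4500 read 4.69, 5.36 and 4.55 with cisplatin and 4.58, 3.78 and 5.13 with osimertinib, against 5.54, 5.39 and 5.82 with vehicle, and fell by 1.09 with osimertinib (limma adjusted p 0.00940). With cisplatin MIR4500 had -0.72, short of the threshold (limma adjusted p 0.0691). MIRLET7A3, MIRLET7D and MIRLET7E, whose strands differ from let-7a-5p at no more than 2 bases, lay between -0.34 and 0.26 with either drug and were not called. Which of the let-7 genes feeds the shared mature pool was not measured. MIR590, with the seed of MIR21, read 3.99, 4.10 and 4.50 with cisplatin and 4.37, 3.92 and 4.68 with osimertinib, against 5.63, 5.43 and 5.29 with vehicle. It fell by 1.25 ± 0.184 with cisplatin and 1.12 with osimertinib, where MIR21 rose by 0.86 with osimertinib. The cisplatin mean of MIR590, 4.20, lay below the limit and its osimertinib mean just above it, so it passed mainly through vehicle. MIR25 fell by 0.86 with cisplatin (limma adjusted p 0.00183) and 0.87 with osimertinib (limma adjusted p 0.00170), while MIR92B had 0.22 and -0.10 and was not called. MIR25 lay below the limit with cisplatin (4.21) and osimertinib (4.21) and passed through vehicle (5.08). For a gene that passed only through the group where it was high a difference was bound to appear, so its fall is a description and supports no contrast within a seed group. The fall of MIR590 is read in the same way. MIR106B, a neighbour of MIR25 inside MCM7 with another seed, had 0.07 and -0.39 and was not called with either drug. MIR3916 and MIR5047 fell with both drugs, and their seed partners MIR3125 and MIR1301 were not called. The difference between the members of a seed group was not itself tested.

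**Figure D3:**
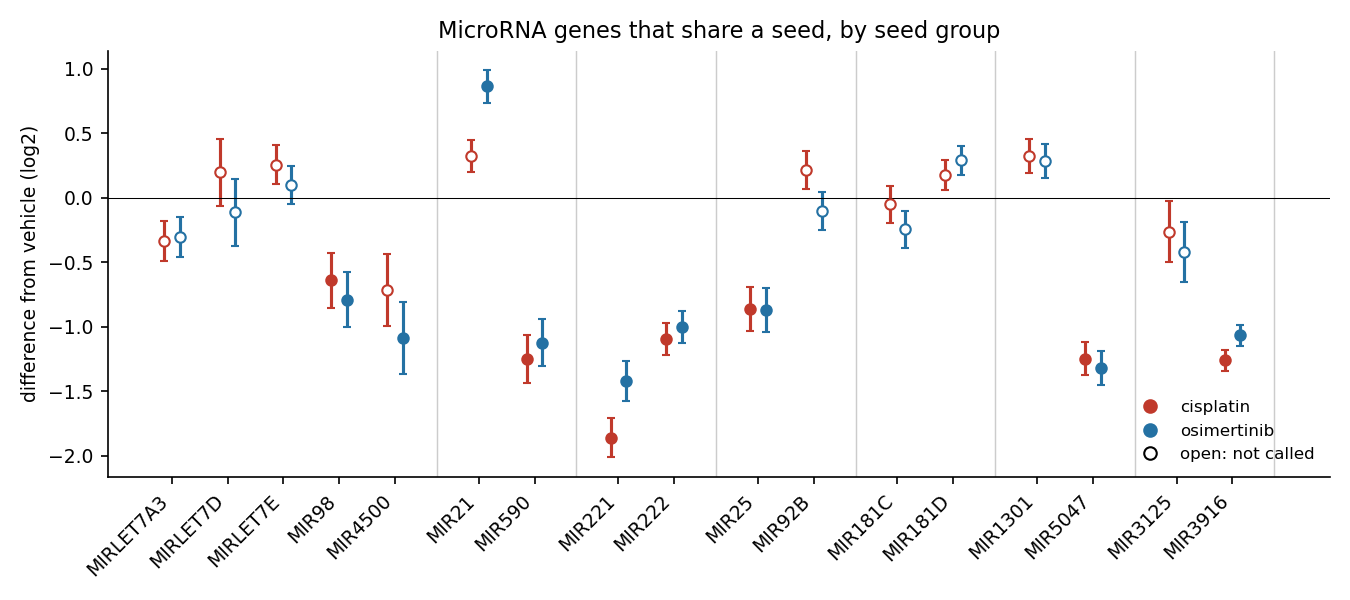
Difference from vehicle (log2) of microRNA genes that share a seed, by seed group between the vertical lines, with cisplatin in red and osimertinib in blue. Bars are the SE of the fit over 9 arrays, and filled points passed adjusted p under 0.05. MIR221 and MIR222 both lie below 0, whereas MIR21 lies above 0 and MIR590 below it. The cisplatin means of MIR590 and MIR25 and the osimertinib mean of MIR25 lay below the level limit, so the falls of these genes are a description.

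Neighbouring genes were set side by side as well. Of the 252, 31 lie in 12 clusters with neighbours within 10 kb, and MIR221 with MIR222 was the only such cluster in which every member was called with both drugs. In the cluster of MIR539, MIR134, MIR668 and MIR541 on chromosome 14 and in that of MIR188, MIR362, MIR500B and MIR502 on the X chromosome, 0 of 4 members were called with either drug. In either direction 24.2% of the 252 were called with cisplatin and 25.8% with osimertinib, against 31% and 30.6% of all tested genes. With so few members per cluster these counts are a description.

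A microRNA inside a host gene is usually transcribed with it, so the hosts were set beside the microRNA genes. Strand was known for 231 of the 252, of which 143 lie inside a gene of the same strand, 119 in a protein-coding gene and 24 in a lncRNA gene, and 88 do not. Of the 143, 25 fell and 8 rose with cisplatin, 17.5% and 5.59%, and 35 fell and 5 rose with osimertinib, 24.5% and 3.5%. Of the 88, 11 fell and 9 rose with cisplatin, 12.5% and 10.2%, and 13 fell and 5 rose with osimertinib, 14.8% and 5.68%. All tested genes gave 14.5% lower and 16.5% higher with cisplatin and 13.7% and 16.9% with osimertinib. A host among the tested genes was found for 61, which share 56 hosts. With cisplatin 15 of the 61 fell, 24.6%, and the host fell for 1, rose for 2 and was not called for 12. With osimertinib 19 fell, 31.1%, and the host fell for 3, rose for 5 and was not called for 11. Across these 61 genes the difference of the microRNA gene and that of its host had a Pearson r of 0.086 with cisplatin and 0.057 with osimertinib. Points that share a host or an array are not independent, so these values are a description.

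MIR590 and its host EIF4H, a translation factor gene, had differences of opposite sign. EIF4H read 7.92, 8.05 and 8.07 with cisplatin and 7.90, 7.85 and 7.85 with osimertinib, against 7.64, 7.57 and 7.71 with vehicle. The host rose by 0.37 and 0.23 where the microRNA gene fell by 1.25 and 1.12. The cisplatin mean of MIR590 lay below the limit and its osimertinib mean just above it, so it passed mainly through vehicle. Its fall is a description and supports no contrast with the host. AATF, a gene of ribosome production and apoptosis control, rose by 0.69 with cisplatin and 0.60 with osimertinib, and MIR2909 inside it fell by 0.72 and 0.78. ZFR rose by 0.17 with osimertinib, and MIR579 inside it fell by 1.07, and the fatty acid desaturase gene FADS1 rose by 0.34 where MIR1908 fell by 0.45. TMEM164 rose by 0.91 with osimertinib, and MIR3978 inside it fell by 0.48, a call lost in 4 of 17 alternatives. GDF15 fell by 0.33 with osimertinib, and MIR3189 inside it rose by 0.76. NAV1 fell by 0.34 with cisplatin, and MIR1231 inside it rose by 0.59, a call lost in 3 of 17 alternatives. Pairs that moved the same way were MIR571, at -0.82 with cisplatin and -0.84 with osimertinib, with the zinc finger gene ZNF141, at -1.13 and -0.93, and MIR21, at 0.86 with osimertinib, with the autophagy gene VMP1, at 0.35. MIR4677 fell with osimertinib beside SDCCAG8 at -0.27, and MIR550A3, at -0.59, beside MIR550A3HG at -0.42. The MIR550A3 call was lost in 6 of 17 alternatives. MIR5047 fell by 1.25 and 1.32 while DDX5 had -0.10 and -0.05 and was not called. MIR4295 fell while VTI1A had -0.25 and -0.15, also not called.

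**Figure D4:**
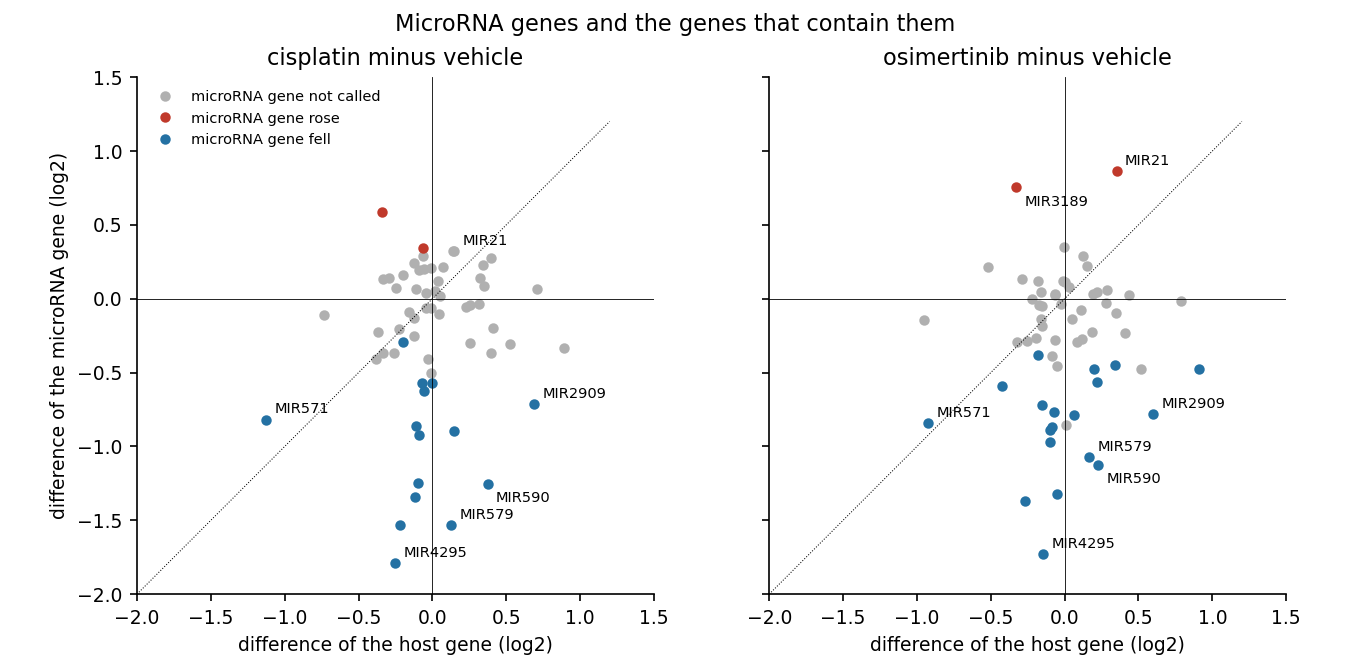
Difference from vehicle (log2) of 61 microRNA genes on the vertical axis against that of the gene containing them on the horizontal axis, for cisplatin and osimertinib, with the dotted line marking equal differences. Many of the microRNA genes that fell stand beside a host near 0, and MIR590 and MIR2909 lie opposite a host that rose. The cisplatin mean of MIR590 lay below the level limit and its osimertinib mean just above it, so its fall is a description.

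The genes that fell had hairpins with a lower median share of G and C than the genes that rose. Single genes went the other way. With osimertinib MIR1908, which has the highest share at 80%, fell, and MIR21, at 48.6%, rose. The hairpins below were picked as examples of low and high shares, with G and C in capitals, from RefSeq (GRCh38.p14). MIR579 and MIR590 fell with both drugs, and their hairpins have 32.7% and 35.1% G and C.
MIR579 hairpin (chr5:32394378-32394475, minus strand): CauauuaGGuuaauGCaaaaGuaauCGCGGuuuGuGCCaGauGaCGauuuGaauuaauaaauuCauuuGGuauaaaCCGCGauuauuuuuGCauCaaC
MIR590 hairpin (chr7:74191198-74191294, plus strand): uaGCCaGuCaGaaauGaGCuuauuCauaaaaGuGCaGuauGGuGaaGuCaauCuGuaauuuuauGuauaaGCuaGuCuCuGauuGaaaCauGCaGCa
MIR602 and MIR1281 rose with both drugs, and their hairpins have 69.4% and 66.7% G and C.
MIR602 hairpin (chr9:137838419-137838516, plus strand): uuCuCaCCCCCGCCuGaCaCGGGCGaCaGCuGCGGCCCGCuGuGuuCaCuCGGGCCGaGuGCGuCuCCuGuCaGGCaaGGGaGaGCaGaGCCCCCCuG
MIR1281 hairpin (chr22:41092513-41092566, plus strand): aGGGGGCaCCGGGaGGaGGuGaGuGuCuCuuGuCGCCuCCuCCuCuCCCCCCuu
Over the 211 genes with a hairpin in the table, 52 to 153 bases long, the G and C share ran from 30.8% to 80% with a median of 58.8%. The median was 50% for the 29 that fell with cisplatin, 64.0% for the 16 that rose and 59.7% for the 166 not called. With osimertinib it was 50.9% for the 41 that fell, 66.7% for the 9 that rose and 59.8% for the 161 not called.

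Split into 4 groups by this share, the lowest, 53 genes between 30.8% and 52.4%, held 19 of those 29 falls with cisplatin and 1 rise, with a median difference of -0.29. With osimertinib it held 24 falls and 1 rise, with a median of -0.43. In the other 158 genes, 10 fell and 15 rose with cisplatin, with a median of 0.06, and 17 fell and 8 rose with osimertinib, with a median of -0.08. Of all 7442 tested genes 14.5% fell and 16.5% rose with cisplatin, and 13.7% fell and 16.9% rose with osimertinib. In the low group the median deviation from each gene's mean was -0.00618, -0.115 and -0.122 on the cisplatin arrays and -0.254, -0.206 and -0.0806 on the osimertinib arrays, against 0.399, 0.253 and 0.283 on the vehicle arrays. The medians of all drug arrays thus lay below those of all vehicle arrays in this group. Across the 211 genes Spearman's rho between the G and C share and the difference was 0.335 with cisplatin, 0.316 with osimertinib and -0.114 between the drugs. These points share arrays, and probe brightness can depend on base composition, so the values are a description. The share had a rho of 0.163 with the mean level. Of the microRNA genes below the limit 673 had a hairpin, and their rho was 0.206 with cisplatin and 0.0570 with osimertinib. The 492 of them in the range of the low group or under had medians of -0.01 and 0.00. The part of base composition or probe chemistry in the falls was not tested.

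**Figure D5:**
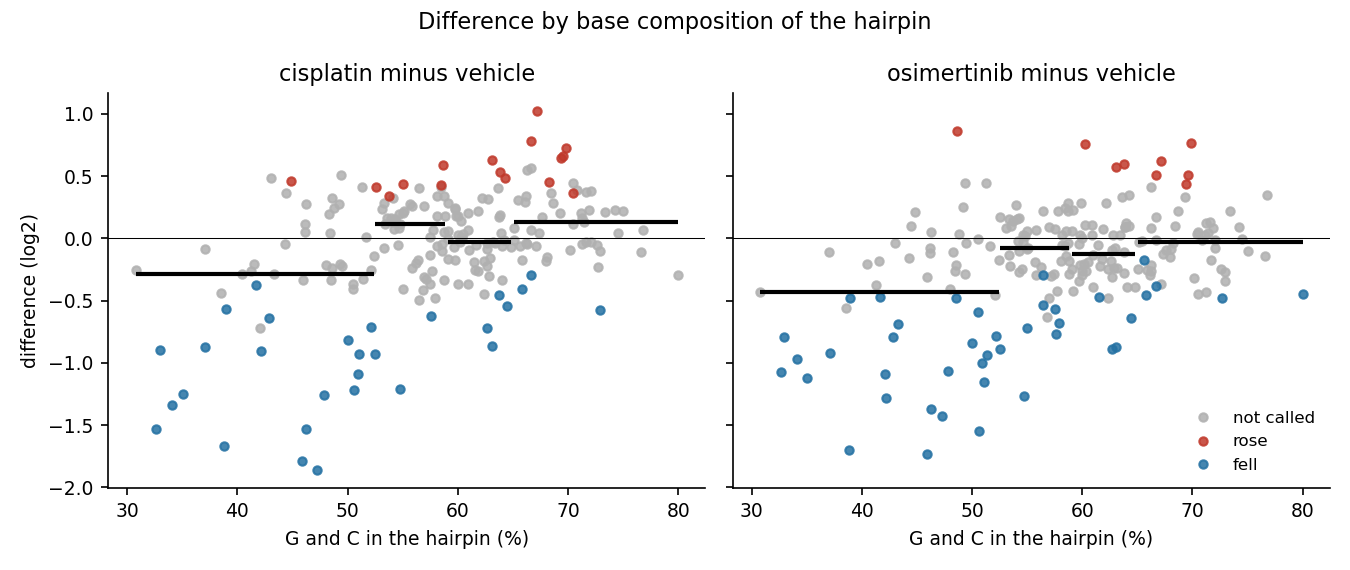
Difference from vehicle (log2) of 211 microRNA genes against the G and C share of the hairpin (percent), for cisplatin and osimertinib. Black lines are the medians of 4 groups of genes split by that share. The lowest group has medians of -0.29 for cisplatin and -0.43 for osimertinib and holds most of the genes that fell.

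Genes that make, hold or degrade microRNAs were also described. The list has 64 genes, of which 34 were named and 31 tested. DROSHA, DICER1 and the Argonaute genes were not among the 31, so those core steps are not described here. With cisplatin 9 of the 31 fell and 1 rose, 29% and 3.23%, and with osimertinib 6 fell and 2 rose, 19.4% and 6.45%, where all tested genes gave 14.5% and 16.5% with cisplatin and 13.7% and 16.9% with osimertinib. Between the drugs 0 of 31 were called in either direction. The median differences were -0.11 and -0.05. Among the nuclear factors, DGCR8, the RNA-binding partner of DROSHA, read 4.99, 5.42 and 5.23 with cisplatin, against 5.51, 5.57 and 5.70 with vehicle, a fall of 0.38 (limma adjusted p 0.0231), and it had -0.27 with osimertinib (limma adjusted p 0.0950). DDX17, a helicase of the DROSHA complex, read 8.12, 8.21 and 8.31 with cisplatin and 8.24, 8.13 and 8.28 with osimertinib, against 8.72, 8.88 and 8.87 with vehicle. It fell by 0.60 with both drugs, without overlap, while its relative DDX5 was not called.

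SRSF3 and HNRNPA1, splicing proteins that also bind primary microRNA transcripts, fell as well. SRSF3 read 8.20, 8.34 and 8.26 with cisplatin and 8.34, 8.20 and 8.19 with osimertinib, against 8.71, 8.68 and 8.72 with vehicle, a fall of 0.43 and 0.46. HNRNPA1 fell by 0.84 and 0.90, and the RNA helicase DHX9 by 0.38 and 0.33. The export factor XPO5 fell by 0.24 with cisplatin (limma adjusted p 0.0490) and had -0.20 with osimertinib (limma adjusted p 0.0913). Among the nucleases, DIS3L2, which degrades uridylated let-7 precursors, fell by 0.34 with both drugs, XRN1 by 0.37 and 0.24, and the deadenylase subunit gene PAN3 by 0.22 with cisplatin. The rising genes were DDX20, a helicase found with Argonaute proteins, by 0.77 and 0.70, and FMR1, the fragile X RNA-binding protein gene, by 0.53 with osimertinib. Without vehicle replicate 3 the falls with cisplatin numbered 5 of 31, and without cisplatin replicate 1 the rises numbered 2.

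MicroRNA genes below the level limit were set beside the 252 in a fit over all 14884 named genes. Of the 820, 47 were lower and 14 higher with cisplatin, 5.73% and 1.71%, against 7.28% and 7.41% of all genes in that fit. With osimertinib 51 were lower and 13 higher, 6.22% and 1.59%, against 6.99% and 7.77%. Between the drugs 1 was higher with osimertinib and 0 were lower, against 0.222% and 0.289% of all genes (limma, adjusted p under 0.05). Below the limit, as above it, more microRNA genes fell than rose. Below it, however, the shares of falls and of rises both lay under those of all genes in that fit. The median difference over the 820 was -0.004 with cisplatin and 0.001 with osimertinib.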

How the data were processed

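Gene expression was measured on 9 Affymetrix Human Gene 2.0 ST arrays, 3 per group, labelled as biological replicates. The deposited values were summarized per gene by a service provider, per the series' design text, and the submitters' processing notes name Affymetrix Power Tools without a version. For background correction and summarization, the method is not given in the sources used here. No source states the log base of the deposited values, and their range was taken as log2. With another base every fold would differ and no call. The columns differed by 0.0929 on average at equal ranks, so a shift common to most transcripts would not be seen. Of 53617 rows, 16098 were named with 1 gene through the platform annotation, which can be old, and 37519 were not named. The brightest row of each gene was used, and 39 of the 252 microRNA genes had several rows, of which 0 were called in opposite directions. The 7442 genes whose level reached the median entered 1 limma 3.58.1 fit in R 4.3.3 with 3 group means, 6 residual degrees of freedom, a variance trend and robust empirical Bayes. Standard errors are moderated. Tests were two-sided, with Benjamini-Hochberg adjustment over all tested genes within a contrast and calls under 0.05. The fit was tested on simulated data. Precision is limited by the number of arrays. The microRNA genes and all lists were chosen with earlier results of these data known. Named are the brightest 10, the 10 largest called rises and falls without overlap per drug, the 5 largest between the drugs, listed families, genes at the limit, host pairs and called pathway genes. Other genes that make up a count or a seed group were named after their values were seen. Host genes are RefSeq genes of GRCh38.p14 that contain the hairpin on the same strand, found for the 231 genes with a strand in the sequence table. No pairing by replicate number was visible. Same-numbered arrays of different groups had correlations of their deviations between -0.227 and 0.126, and differently numbered ones between -0.1185 and 0.1974. Alternatives were scaling, level filter, variance model, row choice, replicate block, arrays in the fit and leaving out each array.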

Additional observations from a re-analysis of the deposited data

How the results depend on the processing

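Of the 80 called differences of 87 named microRNA genes, 58 kept their call in all 17 alternatives each, 22 lost it in at least 1, and 0 reversed. Leaving out 1 array at a time gave 7 to 22 rises and 37 to 52 falls with cisplatin, 7 to 12 rises and 46 to 60 falls with osimertinib, and 1 to 3 higher and 0 to 1 lower between the drugs. The count of rises with cisplatin was 8 without cisplatin replicate 1 and 7 without vehicle replicate 3, and with osimertinib 7 without vehicle replicate 3. Between the drugs the count of higher genes was 1 without cisplatin replicate 3, osimertinib replicates 1 or 3, or vehicle replicate 3, and the count of lower genes was 1 without cisplatin replicate 1 or osimertinib replicate 2. For the pathway genes the ranges were 1 to 2 rises and 5 to 9 falls with cisplatin, with 2 rises without cisplatin replicate 1 and 5 falls without vehicle replicate 3. With quantile normalization, the rises with cisplatin were 30, the lower genes between the drugs 1, and the rising pathway genes 3 with cisplatin and 4 with osimertinib. Without a level filter, and so with p-values adjusted over 14884 genes, rises were 12 with cisplatin, 7 with osimertinib and 1 between the drugs. With a level limit of 5, which leaves fewer genes, rises with osimertinib were 6 and lower genes between the drugs 1. Without trend and robust fitting, or with only the 6 arrays compared, the higher genes between the drugs were 1. With the replicate number as a block, lower genes between the drugs were 2 in place of 0, and counts with cisplatin were 21 higher and 44 lower. The cause of these moves was not tested. The 3 arrays per group and the dim level of most microRNA rows limit what can be called. Of members whose 3 group means all reached the limit, an alternative chosen after seeing the data, 219 remained, with 15 rises and 35 falls with cisplatin and 9 rises and 48 falls with osimertinib.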

Other observations

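Among the microRNA genes of listed families below the level limit, 270 in all, 12 fell and 6 rose with cisplatin, in a limma fit over all 14884 named genes. That is 4.44% and 2.22%, against 7.28% and 7.41% of all genes in that fit. With osimertinib 17 fell and 7 rose, 6.3% and 2.59%, against 6.99% and 7.77%. The largest fall among listed families was MIR181B2, which lay at 3.48 ± 0.19 with cisplatin and 3.48 ± 0.13 with osimertinib, against 5.36 ± 0.16 with vehicle (SD, n = 3 arrays each, limma adjusted p 4.51e-06 and 4.65e-06). MIRLET7G was lower by 0.69 and 1.17, MIR30C1 by 0.98 and 1.17, and MIR454, with the seed of MIR4295, by 0.94 with both drugs. MIR16-1, the neighbour of MIR15A in DLEU2, was higher by 0.56 and 0.57, and MIR146B was lower by 0.64 and 1.04. MIR378A was higher with osimertinib, by 0.92 over vehicle and by 1.17 over cisplatin (limma adjusted p 0.0131 and 0.0434). MIR34A, the best known microRNA target of p53, lay at a mean of 3.76 and was not called, at 0.06 with cisplatin and -0.06 with osimertinib. MIR146A and MIR223, known from myeloid cells, were also not called. At these levels a value may hold background, which was not measured.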
